A study of Mus musculus with 8 samples.

Results

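The genes described here write, copy, read and remove 5-methylcytosine, the methyl mark on DNA: Dnmt1, Uhrf1, Dnmt3a, Dnmt3b, Tet1, Tet2, Tet3 and Mbd2. These 8 genes were taken by name from a table of read counts for 54532 genes, and the list was chosen with earlier results of these data known. All 8 were above the filter on low counts (mean count of 10 or more per library). The table holds 8 RNAseq libraries. Each was made from GFP+ cells, sorted by FACS on the membrane reporter, of 8-month-old females. KO animals were Tie2e-cre; TERTfl/fl; mTmG and WT animals were Tie2e-cre; TERT+/+; mTmG, so the WT controls also carry the Cre driver and the reporter. There were 4 pairs, each of 1 KO and 1 WT library: subcutaneous adipose tissue (SAT) after high-fat diet (HFD) between months 1 and 8, and, on chow, SAT, visceral adipose tissue (VAT) and gastrocnemius muscle. The Tie2e promoter drives Cre in endothelial cells and is also active in some blood lineage cells.

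DNMT1 copies methylation onto the new strand after replication, and UHRF1 brings it to hemimethylated sites. DNMT3A and DNMT3B place methyl groups on unmethylated DNA. TET1, TET2 and TET3 oxidise 5-methylcytosine, which leads to its removal, and MBD2 binds methylated CpG sites and recruits the NuRD repressor complex. In dividing cells the maintenance pair is made mainly around S phase, under the control of E2F transcription factors, whereas TET2, TET3 and DNMT3A are widely found in blood and vascular cells.

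With 1 library per genotype in each pair, a difference within a pair describes those libraries alone, and the 95% intervals given here cover counting error only. Library totals ran from 6214269 counts (WT, SAT on HFD) to 18855772 counts (WT, SAT on chow). Tert, the targeted gene, had 114 and 0 counts in WT and KO SAT on HFD, 70 and 11 in SAT on chow and 24 and 7 in muscle. The VAT pair, with 3 counts under the WT label and 9 under the KO label, gave no check of its labels, since the log2 ratio of 0.90 had an interval of −1.02 to 3.50. The libraries of SAT on chow stood apart in the ratio of KO to WT by gene length, given beside their results. In all 8 libraries, at least 1 other cell type list also summed higher than the endothelial markers. Levels are given as CPM, that is TMM-scaled counts per 1e6. The 14 endothelial markers summed to 413 CPM at the lowest and 3049 CPM at the highest, with none at 0 in any library. In muscle, the 9 neutrophil markers reached 20239 and 24285 CPM and the 9 macrophage markers 5446 and 5209 CPM. The macrophage markers reached 14625 and 14426 CPM in VAT. In the 4 SAT libraries, the 9 T cell markers stood at 1922 to 4044 CPM, the 7 B cell markers at 2232.5 to 4261 CPM and the 10 stromal markers at 787 to 3533 CPM. In such bulk samples, fewer cells of a type and less RNA per cell cannot be told apart.

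A 30-base stretch from each of the maintenance genes is shown first, because Dnmt1 and Uhrf1 were the only members with an E2F-type octamer (TTTGGCGC, TTTGCCGC, TTTCGCGC or TTTCCCGC, searched on both strands) in the 250 bases before a start listed by RefSeq on GRCm38.p6. Of 32851 mouse promoters of that length, 1.86% held such an octamer. In the lines that follow, written 5′ to 3′ on the strand of the gene, the octamer is in capitals. It reads as TTTCGCGC on the opposite strand for Dnmt1 and on the gene's own strand for Uhrf1.
Dnmt1: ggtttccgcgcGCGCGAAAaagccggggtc
Uhrf1: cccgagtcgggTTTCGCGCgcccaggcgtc
The Dnmt1 stretch lies at chr9:20952824-20952853 (minus strand), with the octamer 219 bases before 1 of the gene's 3 listed starts, where GENCODE has an exon and UTR of longer Dnmt1 transcripts. The Uhrf1 stretch lies at chr17:56304117-56304146 (plus strand), 185 bases before 1 of 2 listed starts, outside the exons that GENCODE gives for Uhrf1. A match is a description of these letters and no evidence of binding. The promoters of the other members differed mainly in CpG content: the 250 bases before Tet2 held 51 CpG sites, a number that 0.0487% of promoters exceeded, those before Dnmt3a held 15 to 40, and those before Dnmt3b, Tet3 and Tet1 held 21, 17 and 15, against a median of 6 over all promoters. The promoter of Mbd2 was not used here.

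Both maintenance genes were highest in muscle, and each had its lowest level in a VAT library. Dnmt1 (chromosome 9, 20907209 to 20959888, GRCm38) stood at 194 CPM in WT and 204 CPM in KO muscle, at 175 and 117 CPM in SAT on chow, at 102 and 115 CPM in SAT on HFD, and at 73.4 and 63.9 CPM in the VAT libraries labelled WT and KO. The VAT libraries were below all 6 others, the muscle libraries above all 6 others, and the highest level was 3.20 times the lowest. Uhrf1 (chromosome 17, 56303321 to 56323486) had a wider range: 65.9 CPM in WT and 100 CPM in KO muscle, 49.5 and 19.1 CPM in SAT on chow, 9.78 and 27.2 CPM in SAT on HFD, and 8.51 and 11.1 CPM in the VAT libraries labelled WT and KO. Its highest level was 11.8 times its lowest, and the intervals of WT SAT on HFD and of both VAT libraries overlapped in turn. For every 100 Dnmt1 counts there were 9.56 Uhrf1 counts in WT SAT on HFD and 49.0 in KO muscle, so the pair did not keep a fixed proportion.

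**Figure D1:**
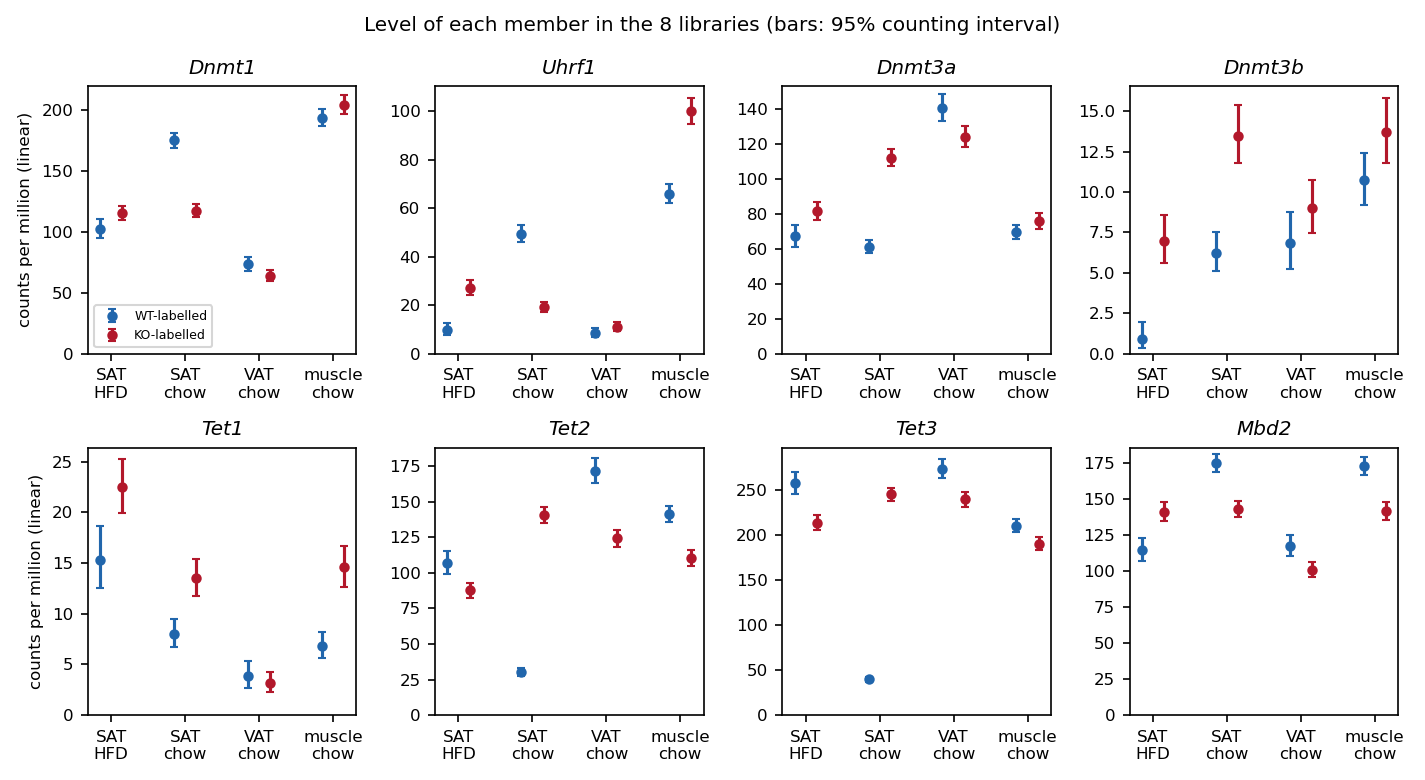
Level of each of the 8 genes in the 8 libraries, in CPM on a linear axis from 0, by tissue and diet, with WT-labelled libraries in blue, KO-labelled libraries in red and bars for the 95% counting interval. Dnmt1 and Uhrf1 are highest in muscle (204 and 100 CPM in KO) and lowest in 1 of the VAT libraries (63.9 and 8.51 CPM), Tet2 and Tet3 are lowest in WT SAT on chow (30.4 and 39.6 CPM), and Dnmt3b is at 0.903 CPM in WT SAT on HFD.

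Both maintenance genes were compared with the cell cycle genes over the 8 libraries. The 20 genes of a cell cycle list (Mki67, Top2a, the Mcm genes and others) summed to 1695 and 2227 CPM in WT and KO muscle, 1125 and 524 CPM in SAT on chow, 518 and 576 CPM in SAT on HFD, and 358 and 410 CPM in VAT. Across the 8 libraries, Pearson's r with that sum was 0.94 for Dnmt1 and 0.96 for Uhrf1, and 0.93 between the 2 genes. Mbd2 had r = 0.72 with the cell cycle sum, 0.87 with Dnmt1 and 0.79 with Uhrf1, also on the log2 scale. These correlations are descriptions over 8 libraries that share tissues, diets and genotypes. The proportion was not fixed: Uhrf1 stood at 1.89 to 4.71 CPM, and Dnmt1 at 9.18 to 22.4 CPM, for each 100 CPM of the list, and from the VAT library labelled WT to that labelled KO the list went from 358 to 410 CPM while Dnmt1 went from 73.4 to 63.9 CPM. The neutrophil list was also highest in muscle, and on the same log2 scale its r was 0.62 with Dnmt1 and 0.74 with Uhrf1. The part of cell composition in these levels was not tested.

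**Figure D2:**
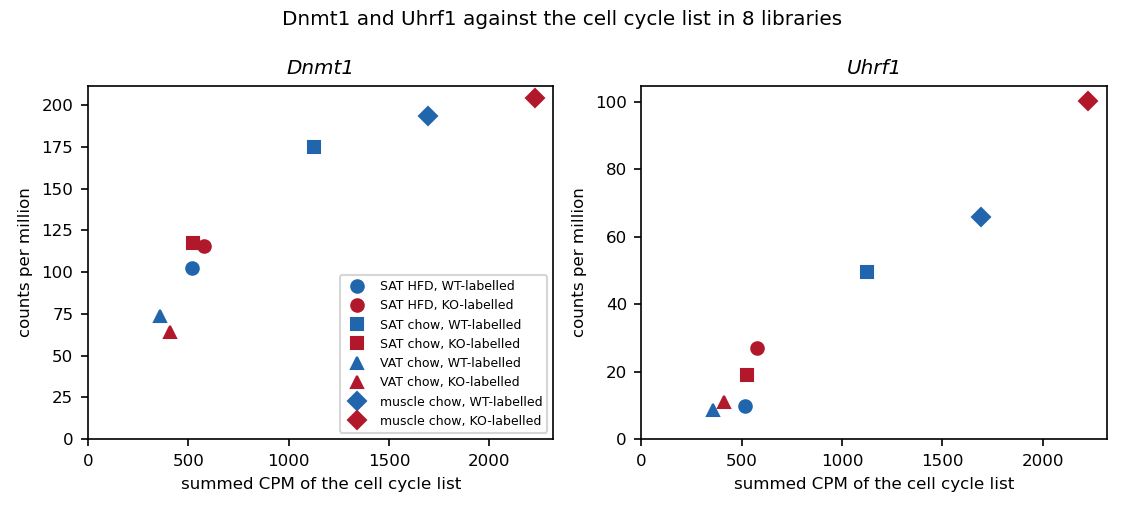
Level of Dnmt1 (left) and Uhrf1 (right) in CPM against the summed CPM of the 20 cell cycle genes, 1 point per library, with the shape giving tissue and diet and the colour the labelled genotype. Both genes are highest at the KO muscle sum of 2227 CPM; Dnmt1 is lowest at the VAT sums of 358 and 410 CPM, and Uhrf1 is lowest at 358 CPM, with WT SAT on HFD (9.78 CPM) below the VAT library at 410 CPM (11.1 CPM).

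The de novo enzymes followed other patterns. Dnmt3a (chromosome 12, 3806007 to 3914443) was highest in VAT, at 141 CPM in the library labelled WT and 124 CPM in that labelled KO. It stood at 112 CPM in KO and 61.1 CPM in WT SAT on chow, at 67.1 and 81.4 CPM in WT and KO SAT on HFD, and at 69.6 and 75.8 CPM in WT and KO muscle. The 5 lowest libraries, from KO SAT on HFD down to WT SAT on chow, overlapped each with the next in their intervals. Dnmt3b (chromosome 2, 153649450 to 153687730) was low throughout, from 6 counts (0.903 CPM) in WT SAT on HFD to 13.7 CPM in KO muscle. Its other levels were 6.97 CPM in KO SAT on HFD, 6.23 and 13.5 CPM in WT and KO SAT on chow, 6.83 and 8.99 CPM in the VAT libraries labelled WT and KO, and 10.7 CPM in WT muscle. Each of the 7 higher libraries overlapped with the next, and WT SAT on HFD stood below them. Per unit of gene length, Dnmt3a made up 42.8% and 41.7% of the Dnmt transcripts in VAT and between 12.8% and 26.6% elsewhere, and Dnmt1 was the most abundant of the 3 in every library.

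Tet2 and Tet3 shared 1 low library. Tet3 (chromosome 6, 83362373 to 83459084) stood at 39.6 CPM in WT SAT on chow and at 190 to 274 CPM in the other 7 libraries: 245 CPM in KO SAT on chow, 258 and 214 CPM in WT and KO SAT on HFD, 274 and 240 CPM in the VAT libraries labelled WT and KO, and 211 and 190 CPM in WT and KO muscle. Tet2 (chromosome 3, 133463679 to 133545139) stood at 30.4 CPM in WT SAT on chow, 140 CPM in KO SAT on chow, 107 and 87.7 CPM in WT and KO SAT on HFD, 172 and 124 CPM in the VAT libraries labelled WT and KO, and 141 and 111 CPM in WT and KO muscle. The low library gave most of the range of both genes, with highest levels 6.92 times the lowest for Tet3 and 5.66 times for Tet2. Tet3 had 1.30 counts for each Tet2 count in that library and 1.49 to 2.44 in the others.

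Tet1 (chromosome 10, 62804570 to 62908996) was the least abundant member per length, with a median of 0.695 RPKM against 6.96 for Tet2 and 13.6 for Tet3. It was highest in SAT on HFD, at 15.3 CPM in WT and 22.5 CPM in KO. It stood at 7.98 and 13.5 CPM in WT and KO SAT on chow, at 6.79 and 14.6 CPM in WT and KO muscle, and at 3.81 and 3.17 CPM in the VAT libraries labelled WT and KO. Both VAT libraries were below all 6 others, and Tet1 made up 0.846% (95% Clopper-Pearson interval 0.587% to 1.18%) and 0.862% (0.624% to 1.16%) of the counts of the 3 Tet genes there, against 1.89% to 10.2% elsewhere.

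Mbd2, on chromosome 18, was the most abundant member per length, with a median of 44.0 RPKM, ahead of Dnmt1 at 15.8. It also varied least, from 101 CPM in the VAT library labelled KO to 175 CPM in WT SAT on chow, a range of 1.74 times. The other levels were 143 CPM in KO SAT on chow, 173 and 142 CPM in WT and KO muscle, 115 and 141 CPM in WT and KO SAT on HFD, and 117 CPM in the VAT library labelled WT. The 3 libraries at 141 to 143 CPM could not be told apart by their intervals.

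To ask whether tissue or diet set these levels apart by more than the spread between libraries, edgeR's quasi-likelihood test was fitted across 16971 genes with tissue and diet and genotype as terms. No member passed an adjusted p of 0.05 in any of the 4 contrasts of tissue and diet. The share of all genes called was 1.93% for muscle over VAT, 5.05% for VAT over SAT on chow, 1.26% for muscle over SAT on chow and 0.0% for SAT on HFD over SAT on chow. At an unadjusted p under 0.05 there were 4, 3, 0 and 0 of the 8 members, where 12.7%, 20.3%, 11.5% and 7.98% of all genes were. The nearest to a call was muscle over VAT, where the log2 difference was 1.54 (SE 0.31, adjusted p = 0.0521, edgeR) for Dnmt1 and 3.07 (SE 0.64, adjusted p = 0.0572, edgeR) for Uhrf1. Both directions held within each genotype, with log2 ratios of 1.40 in WT and 1.68 in KO for Dnmt1 and of 2.95 and 3.17 for Uhrf1. With all libraries kept, either or both genes passed under 6 of 7 other settings, for example with adjusted p = 0.0498 for Dnmt1 when TMM factors came from all genes. Each of those 6 settings also called more genes in all than the 328 of the main fit. The totals ran from 339 of 16971 genes with library totals to 1255 of 16971 with DESeq2's Wald test. Of the cell cycle list, 9 of 20 genes were called higher in muscle than in VAT, with a list median of 3.04 on the log2 scale against 0.02 for all genes tested, and all 9 neutrophil markers (median 7.30) and 4 of 7 B cell markers (2.37) were called higher as well, whereas 8 of 9 macrophage markers were called lower (−4.61). The part of these cell types in the differences was not tested. With any 1 of the libraries left out, the difference of muscle over VAT ran from 1.38 to 1.68 for Dnmt1 and from 2.81 to 3.28 for Uhrf1.

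VAT over SAT on chow gave log2 differences of −1.08 (SE 0.31, adjusted p = 0.093) for Dnmt1, −1.88 (SE 0.63, adjusted p = 0.143) for Uhrf1 and −1.54 (SE 0.58, adjusted p = 0.19) for Tet1 in the same edgeR fit. Markers differed in this contrast too: all 9 macrophage markers (median 3.72) and 10 of 14 endothelial markers (2.13) were called higher in VAT, and 8 of 9 T cell markers (−3.15) and 5 of 7 B cell markers (−3.48) lower, while the cell cycle list had a median of −1.42 with none of 20 called and 12 at an unadjusted p under 0.05. Their part in the members' differences was not tested. Without the WT library of SAT on chow, Dnmt1 was at −0.71 and Uhrf1 at −0.51, and without the VAT library labelled KO, Tet1 was at −0.97. The differences for Tet2 (0.88, adjusted p = 0.497) and Tet3 (1.02, adjusted p = 0.467) rested on the WT library of SAT on chow. Within WT the log2 ratio of VAT to SAT on chow was 2.50 for Tet2 and 2.79 for Tet3, and within KO it was −0.18 and −0.03. Without the KO library of SAT on chow, which leaves the WT library alone in that group, Tet3 was at 2.80 and Tet2 at 2.46. Without the WT library instead, the differences were −0.07 for Tet2 and 0.02 for Tet3.

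For diet, SAT on HFD over SAT on chow gave −1.54 (SE 0.79, adjusted p = 0.691, edgeR) for Dnmt3b, −1.01 (adjusted p = 0.751) for Uhrf1 and 0.84 (adjusted p = 0.765) for Tet1. The value of Dnmt3b ran from −0.62 without WT SAT on HFD to −3.06 without KO SAT on HFD. No marker was called, but all 9 macrophage markers (median −1.30) and 8 of 14 endothelial markers (−1.09) had an unadjusted p under 0.05. The median over all genes in that contrast was −0.24, and it was −0.03 when libraries were scaled by their totals. Tet1 was higher on HFD in both genotypes, with log2 ratios of 0.94 (interval 0.56 to 1.33) in WT and 0.73 (0.48 to 0.995) in KO. Tet1 is a long gene (15457 bases), and its fitted difference was 0.55 with the trend on gene length, described below, removed. Dnmt3b was lower on HFD in both genotypes, at −2.73 (−4.27 to −1.61) in WT and −0.95 (−1.33 to −0.59) in KO. Uhrf1 differed in sign between them, at −2.33 in WT and 0.51 in KO and the difference between the genotypes was not tested. Without the WT library of SAT on chow the fitted difference of Uhrf1 was 0.31, and without the KO library those of Tet2 and Tet3 were 1.87 and 2.68. Muscle over SAT on chow gave no unadjusted p under 0.05, with the largest difference, 1.19 (SE 0.61, adjusted p = 0.538), in Uhrf1. That value rested on the libraries of SAT on chow: it was 2.56 without WT and 0.32 without KO. Without KO, Tet2 and Tet3 were at 2.23 and 2.44 in this contrast.

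The second question was whether loss of Tert changed these enzymes in the sorted cells. Across the 4 pairs, with tissue and diet as a block, no member was called in the edgeR fit, no member had an unadjusted p under 0.05, where 1.64% of all genes had, and the share of all genes called was 0.00589%. The log2 difference of KO over WT was 1.10 (SE 0.56) for Dnmt3b, 0.55 (SE 0.40) for Tet1, 0.43 (SE 0.50) for Tet3, 0.28 (SE 0.44) for Uhrf1, 0.27 (SE 0.23) for Dnmt3a, 0.21 (SE 0.46) for Tet2, and −0.13 for both Dnmt1 (SE 0.22) and Mbd2 (SE 0.21), each with an adjusted p of 0.9999 (edgeR). No member was called when any 1 of the 4 pairs was left out, VAT included, but the sign of 4 values turned on 1 pair. Without SAT on chow, Tet2 was at −0.36 (unadjusted p = 0.0374, edgeR), Tet3 at −0.20 and Dnmt1 at 0.03, and Uhrf1 was at 0.82 (unadjusted p = 0.0205, edgeR), with adjusted p = 0.998 for each. Without SAT on HFD, Uhrf1 was at −0.12, and Dnmt3b, which had 6 counts in WT there, was at 0.62.

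Within the pairs, SAT on chow held the largest differences of Tet2 and Tet3. Tet3 had 655 counts in WT and 4073 in KO, a log2 ratio of 2.63 (interval 2.51 to 2.75), and Tet2 had 502 and 2331 counts, a log2 ratio of 2.21 (2.07 to 2.35). Dnmt3b was also higher in KO there, at 1.11 (0.77 to 1.47), as were Dnmt3a at 0.88 (0.77 to 0.99) and Tet1 at 0.76 (0.44 to 1.08). The maintenance pair was lower in KO, with Uhrf1 at −1.37 (−1.56 to −1.18) and Dnmt1 at −0.58 (−0.66 to −0.49), and Mbd2 was at −0.29 (−0.37 to −0.21). Of the 8 members, 3 lay wholly beyond 2-fold (Tet3, Tet2 and Uhrf1), where 30.7% of all genes did, and all 8 intervals lay off 0, where 81.3% of all genes did. The members' median was 0.82, against −0.00 for all genes, and it was −0.13 with the trend on gene length, described next, removed.

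**Figure D3:**
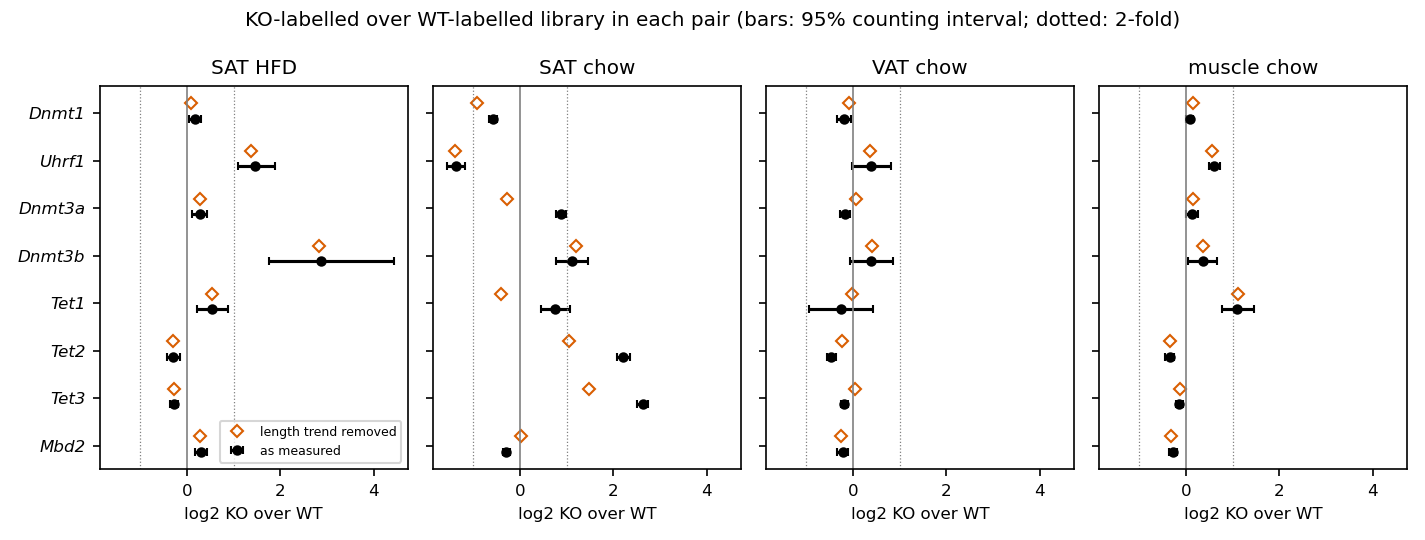
Log2 ratio of the KO-labelled to the WT-labelled library for each gene in each pair (filled points, with 95% counting intervals) and the same ratio after removal of the trend on gene length (open diamonds); dotted lines mark 2-fold. In SAT on chow, Tet3 falls from 2.63 to 1.47 and Dnmt3a from 0.88 to −0.28 when the trend is removed, and in VAT the 4 longest genes shift by 0.24, which turns Dnmt3a to 0.057 and Tet3 to 0.044, whereas in SAT on HFD and in muscle the largest shift is 0.10.

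In SAT on chow, the ratio of KO to WT also went with gene length, and the 4 longest members were among the 5 that were higher in KO. Among all genes, the median log2 ratio there was −0.36 for genes under 1000 bases, −0.59 from 1000 to 2000, −0.34 from 2000 to 4000, 0.09 from 4000 to 8000, 0.64 from 8000 to 15000 and 1.28 for the 369 genes of 15000 bases or more. The same longest class was at 0.03 in SAT on HFD, −0.24 in VAT and −0.00 in muscle. Tet2 (16870 bases), Tet3 (16695), Dnmt3a (16642) and Tet1 (15457) all belong to that class. Of its 369 genes, 46 had a larger ratio than Tet3 and 70 a larger ratio than Tet2, whereas 254 were above Dnmt3a and 274 above Tet1. With the length trend removed, an alternative chosen after seeing the data, Tet3 was at 1.47 and Tet2 at 1.05, and Dnmt3a and Tet1 changed sign to −0.28 and −0.40. Uhrf1 (4259 bases) was at −1.38, Dnmt3b (5106 bases) at 1.21 and Dnmt1 (7377 bases) at −0.92, so these 3 kept their direction without the trend.

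**Figure D4:**
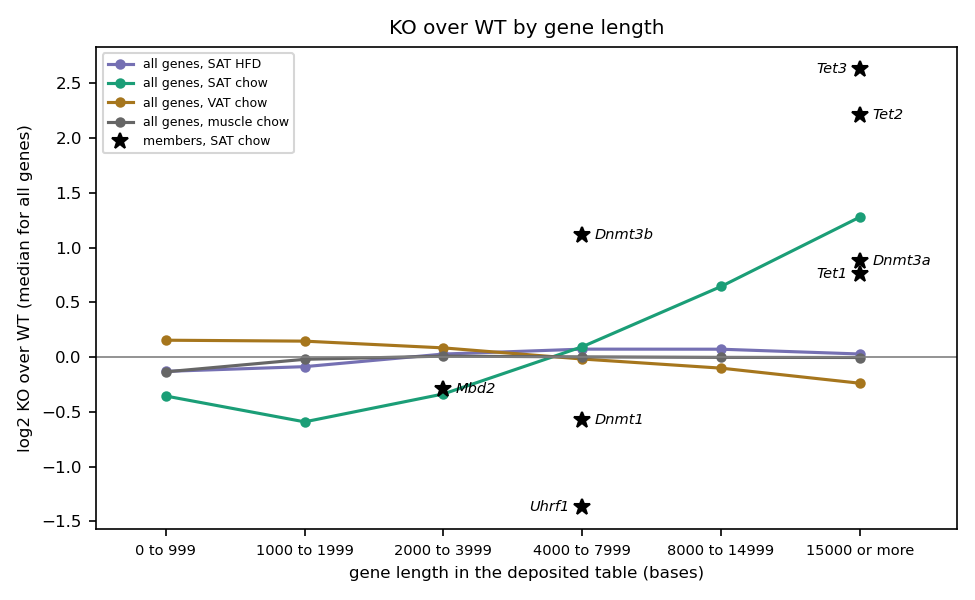
Median log2 ratio of KO to WT over all genes in 6 classes of gene length, 1 line per pair, with the 8 genes of SAT on chow as stars in their own class. The SAT chow line climbs from −0.59 to 1.28 while the other lines stay between −0.24 and 0.15, and Tet2 and Tet3 lie above that line, Dnmt3a and Tet1 below it.

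Cell markers also differed between the libraries of SAT on chow. The cell cycle list was lower in KO for 19 of 20 genes, 15 of them beyond 2-fold, with a median of −1.44, beside Uhrf1 at −1.37 and Dnmt1 at −0.58. The 9 T cell markers summed to 4044 CPM in WT and 1922 CPM in KO, the 9 macrophage markers to 2090 and 853 CPM, and the 10 stromal markers to 787 and 3533 CPM. No stromal or T cell marker was at 0 in either library. The part of these lists in the members' differences was not tested.

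SAT on HFD gave a different set. Dnmt3b had 6 counts in WT and 88 in KO, a log2 ratio of 2.88 with a wide interval (1.77 to 4.43), and Uhrf1 had 65 and 343 counts, a ratio of 1.47 (1.09 to 1.88). These 2 of 8 members lay wholly beyond 2-fold, where 23.8% of all genes did. Tet1 was at 0.55 (0.22 to 0.89), Mbd2 at 0.30, Dnmt3a at 0.28 and Dnmt1 at 0.17, all above 0, and Tet2 (−0.29) and Tet3 (−0.27) were below 0; 72.6% of all genes had an interval off 0. Uhrf1 thus stood on opposite sides in SAT on HFD and SAT on chow. The cell cycle list was not uniformly higher in KO SAT on HFD: 9 of its 20 genes were above 0 and 5 below, with a median of 0.24. Intervals lay below 0 for 8 of 9 macrophage markers (median −0.71) and 7 of 14 endothelial markers (−0.41), and their part in the members' values was not tested.

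In muscle no member lay wholly beyond 2-fold, where 4.79% of all genes did, and all 8 intervals lay off 0, where 56.1% of all genes did. Tet1 was at 1.10 (0.76 to 1.45), from 112 counts in WT to 201 in KO, and Uhrf1 at 0.60 (0.49 to 0.72). Dnmt3b was at 0.35 (0.05 to 0.66), Dnmt3a at 0.12 and Dnmt1 at 0.08, and Tet2 (−0.35), Mbd2 (−0.29) and Tet3 (−0.15) were lower in KO. Several marker lists differed in this pair. Intervals lay above 0 for 14 of 20 cell cycle genes (median 0.35), 12 of 14 endothelial (0.26) and 9 of 10 stromal markers (0.88), and 4 of 8 mural markers were beyond 2-fold higher (0.91). Intervals lay below 0 for 7 of 9 macrophage (−0.97), 8 of 9 T cell (−0.47) and 5 of 5 satellite cell markers (−3.85). The part of these lists in the members' values was not tested.

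In VAT the members differed little, with −0.47 the value furthest from 0. No member lay beyond 2-fold, where 4.5% of all genes did. The intervals of Uhrf1 (0.38), Dnmt3b (0.39) and Tet1 (−0.26) spanned 0, and Tet2 (−0.47), Mbd2 (−0.22), Dnmt1 (−0.20), Tet3 (−0.19) and Dnmt3a (−0.18) were lower in the library labelled KO, so that 5 of 8 intervals lay off 0, where 51.3% of all genes did. With 3 and 9 counts of Tert, this pair carries no check of its genotypes, so the directions are those of the labels. The libraries did differ in markers: 5 of 8 mural (median 1.78) and 3 of 10 stromal markers (0.76) were beyond 2-fold higher in the library labelled KO. Beyond 2-fold lower were 5 of 6 muscle fibre markers (−4.46). Intervals lay below 0 for 10 of 14 endothelial markers and above 0 for 1 (−0.29), and above 0 for 7 of 9 T cell markers (0.36). The part of these lists in the members' values was not tested.

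Read across the pairs, Dnmt3b was the only member with a ratio above 0 in all 4 pairs, its interval spanning 0 in VAT. Tet2, Tet3 and Mbd2 were lower in the KO-labelled library in 3 of 4 pairs: Tet2 and Tet3 were higher in SAT on chow and Mbd2 in SAT on HFD. For 6 of 8 members the interval lay above 0 in one pair and below 0 in another, which held for 65.1% of all genes.

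The wider methylation machinery was described from 8 lists (72 genes: maintenance partners, methyl-CpG readers, NuRD subunits, TET partners, base excision repair, deaminases, methyl donor metabolism and germline genes kept silent by methylation), of which 58 were tested. None of the 58 passed the edgeR test across the pairs, for diet or for muscle over SAT on chow. At an unadjusted p under 0.05 there were 1, 6 and 5, where 1.64%, 7.98% and 11.5% of all genes were. The calls that were made did not exceed the background: 3.45% of the 58 against 5.05% of all genes for VAT over SAT on chow, and 1.72% against 1.93% for muscle over VAT. At an unadjusted p under 0.05 (edgeR), 19 and 11 of the 58 in these contrasts were above the background of 20.3% and 12.7%. VAT over SAT on chow gave 1 gene higher, the cytidine deaminase Apobec1 (log2 difference 1.74, adjusted p = 0.0321), and 1 lower, the poly(ADP-ribose) polymerase Parp1 (−1.51, adjusted p = 0.0382). Muscle over VAT gave 1, the stress-response gene Gadd45a (2.15, adjusted p = 0.042), at 101 and 99.4 CPM in WT and KO muscle and 20.5 and 24.4 CPM in VAT.

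Within pairs, the partners of maintenance methylation were mostly lower in KO SAT on chow, as Dnmt1 and Uhrf1 were. Cdca7, which supports the remodeller HELLS in maintenance methylation, had 471 counts in WT and 109 in KO (log2 ratio −2.11), and its relative Cdca7l had 528 and 210 (−1.33). Of the 7 maintenance partners measured there, 5 were below 0 and 2 above, with a median of −0.64, and 3 were beyond 2-fold lower. Of all genes, 30.7% were beyond 2-fold in either direction and 81.3% had an interval off 0. Genes of 2000 to 4000 bases, such as Cdca7 (3202) and Cdca7l (3258), had a median of −0.34 in this pair. The other pairs did not repeat this: partners above and below 0 numbered 2 and 0 in SAT on HFD, 4 and 2 in VAT, and 2 and 3 in muscle. Idh2, which makes the 2-oxoglutarate that TET enzymes use, was at −1.35 in SAT on chow, and Idh1 was at −1.94 in SAT on HFD (104 counts in WT and 51 in KO). The base excision glycosylase Neil1 was at 1.94 in SAT on chow (286 counts in WT and 1105 in KO). In VAT and muscle, no gene of the wider lists with a mean count of 50 or more lay beyond 2-fold.

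Of the 12 germline genes that promoter methylation keeps silent, 5 to 11 were at 0 in any one library, and their sum was 3.02 to 12.8 CPM. The highest sum, in KO SAT on chow, came mostly from Tuba3a, with 140 counts there against 3 in WT, a ratio of 46.5 (interval 15.6 to 228). The next highest, 9.78 CPM in WT SAT on HFD, came from Brdt alone (65 counts), and the sum in KO SAT on HFD was 6.33 CPM. Of the 2 germline genes with enough counts in that pair, 1 lay above 0 and 1 below. Tuba3a had 0 and 36 counts in WT and KO SAT on HFD, 3 and 5 in the VAT libraries labelled WT and KO, and 13 and 36 in muscle, and it shares sequence with a near-identical copy, so its reads may be split between them. In the fit across the pairs its difference was 3.19 (SE 1.59, adjusted p = 0.9999, edgeR).

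Genes were also compared with the members by the pattern of log2 CPM over the 8 libraries, among 12367 genes (mean count of 50 or more). The closest to Dnmt1 were Xpo1 (r = 0.98), Sun2, Cyfip2, Tmpo and the replication helicase subunit Mcm5. The closest to Uhrf1 were Hmgn2-ps1 (r = 0.99), Pbx2, Rad17, H2afx and the spindle checkpoint kinase Bub1. Mcm5 and Bub1, each at rank 5, are themselves in the cell cycle list. Dnmt3a was closest to Acbd5 (r = 0.98) and Nrip1, Dnmt3b to AC125351.1 (r = 0.97) and Msx1, Tet1 to Tia1 and Rif1 (r = 0.96 each), Tet2 to Map3k2 (r = 0.99) and Tead1, Tet3 to Gm37728 and Fam196b (r = 0.99 each), and Mbd2 to Cdc5l (r = 0.99) and Cab39. Tet2 and Tet3 had r = 0.94 with each other. With 8 libraries, and 1 of them apart for Tet2 and Tet3, such values describe these libraries only.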

How the data were processed

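RNAseq was done on 8 libraries of FACS-sorted GFP+ cells, 1 per genotype, tissue and diet. The deposited values are whole-number counts per gene, not normalized by the authors, with a gene length column. The submitters' processing notes name HISAT2 2.0.5 and GRCm38/mm10; the counting program and its strand setting are not given in the sources used here, and Dnmt3a and Tet2 share 133 and 43 exonic bases with antisense genes. The labels give a column RNA kit and a SMARTER mRNA kit, whereas the methods of the study give Trizol. Whether mice were pooled is not stated.

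The members and lists were chosen with earlier results of these data known. CPM were scaled by TMM over genes of mean count 10 or more (edgeR 4.0.16, R 4.3.3), and RPKM divide CPM by the deposited gene length in kilobases. Contrasts used the quasi-likelihood F test of edgeR (robust fit), with tissue and diet as 4 levels and genotype as a further term, and Benjamini-Hochberg adjustment at 0.05 over all 16971 genes tested. P-values measure the spread between these libraries that is left after those terms. With 1 library per group, that spread is how far KO over WT differed between the pairs. A KO difference found in 1 pair alone therefore counts as spread. Within pairs, log2 ratios used a prior count of 0.5 with the exact conditional binomial (Clopper-Pearson) 95% interval, and no test. The intervals cover counting error only. "Beyond 2-fold" means an interval wholly beyond it. Of the wider lists, up to 3 genes each way were named per comparison (1 is not reported here), and the 5 genes most like each member by Pearson's r were taken. Alternatives were DESeq2 1.42.0 size factors and its Wald test, library totals, other count filters, a prior count of 5, no block and leaving out each library or pair; TMM over all genes and removal of the trend on gene length (100 bins) were added after seeing the data. As a check of the code only, fits and intervals were run on simulated counts of known change. The simulated fits had the same spread for all genes and no trend on gene length, and the intervals had counting error alone. Promoter sequences are RefSeq's, on GRCm38.p6, and matched 7 of the 8 members.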

Additional observations from a re-analysis of the deposited data

Results flagged for a closer look

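For 6 of the 8 members, the counting interval of KO over WT lay above 0 in one pair and below 0 in another; the difference between pairs was not tested, since each pair has 1 library per genotype. Dnmt1 was at 0.17 in SAT on HFD and −0.58 in SAT on chow, and Uhrf1 at 1.47 and −1.37. Mbd2 was at 0.30 in SAT on HFD and −0.29 in SAT on chow. Tet3 was at 2.63 in SAT on chow and −0.27 in SAT on HFD. Tet2 was at 2.21 in SAT on chow and −0.47 in VAT, and Dnmt3a at 0.88 and −0.18, with the VAT direction taken from labels that Tert does not check. Of 13598 genes whose mean count was 10 or more in every pair, 65.1% had intervals on both sides of 0, so 6 of 8 members is near the background. Dnmt3b and Tet1 had no interval below 0.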

How the results depend on the processing

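No member was called in any contrast of the main fit, which kept all libraries. The counts of called members and the signs that changed under an alternative are given here, and fits without 1 library by size only. Of 128 other within-pair values, 18 kept their sign but lay outside the counting interval (8 larger and 10 smaller in size), as did 5 of 16 ratios of highest to lowest level (all larger). Muscle over VAT gave 1 member with library totals (Dnmt1, 339 of 16971 genes called), 1 with TMM over all genes (Dnmt1, 343) and 1 with the length trend removed (Uhrf1, 502). It gave 2, both genes each time, under 3 settings. These were all genes with at least 1 count (1166 of 29627 genes called), a minimum mean of 50 counts (448 of 12368) and DESeq2's Wald test (1255 of 16971). The main fit called 328 of 16971 genes. VAT over SAT on chow gave 1 over all genes with at least 1 count (Uhrf1), where 2116 of 29627 genes were called. It gave 2 with DESeq2's Wald test (Dnmt1 and Uhrf1), where 2307 of 16971 genes were called, against 857 in the main fit. SAT on HFD over SAT on chow and muscle over SAT on chow gave 0 with all libraries kept. The count beyond 2-fold in SAT on HFD went from 2 to 1 with the length trend removed. In SAT on chow, Tet2 (1.05) was no longer wholly beyond 2-fold with that trend removed. With library totals, Uhrf1 (−1.14) no longer was and Dnmt3b (1.34) was instead.

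Signs changed as follows. Within pairs, removal of the length trend put Dnmt3a at −0.28, Tet1 at −0.40 and Mbd2 at 0.014 in SAT on chow, and Dnmt3a at 0.057 and Tet3 at 0.044 in VAT; library totals put Tet3 in muscle at 0.022. In the fits, library totals put Dnmt3a at 0.0056 for HFD over chow. For muscle over SAT on chow, Tet1 was at 0.051 (DESeq2 size factors), 0.041 (library totals) and 0.051 (Wald test), and Mbd2 at 0.080, 0.067, 0.080 and, with the length trend removed, 0.041. Leaving out 1 pair, KO over WT ran from −0.23 to 0.025 for Dnmt1, −0.12 to 0.82 for Uhrf1, −0.36 to 0.49 for Tet2 and −0.20 to 0.69 for Tet3. Leaving out 1 library, HFD over chow ran from −1.94 to 0.31 for Uhrf1, −0.49 to 0.25 for Dnmt3a, −0.65 to 1.87 for Tet2, −0.094 to 2.68 for Tet3 and −0.62 to 0.082 for Mbd2. VAT over SAT on chow ran from −0.72 to 0.33 for Dnmt3b and −0.070 to 2.46 for Tet2. Muscle over SAT on chow ran from −0.53 to 0.22 for Dnmt3a, −0.13 to 0.92 for Dnmt3b, −0.44 to 0.30 for Tet1, −0.29 to 2.23 for Tet2, −0.33 to 2.44 for Tet3 and −0.12 to 0.16 for Mbd2. Muscle over VAT ran from −0.68 to 0.30 for Tet2 and −0.81 to 0.13 for Tet3. The cause was not tested. Depth limits Dnmt3b most, with 6 counts in WT SAT on HFD, and 1 library per genotype leaves no replicate check within a pair.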
